A study of Mus musculus with 10 samples.

Results

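The START lipid-transfer family was examined in the lateral and the medial shell of the mouse nucleus accumbens, by the levels of 10 listed genes, Star, Stard3, Stard4, Stard5, Stard7, Stard8, Stard10, Stard13, Pctp and Col4a3bp. The members were taken by symbol, and all 10 had values among the 20483 genes measured. Stard5 was chosen by its difference in TPM between these same libraries, and the rest were listed with it as relatives, so the regional values of all 10 are given as a description with 95% intervals and without a test. By its title the study concerns how parts of the accumbens process reward differently. Tissue of the lateral shell (n = 5 libraries) and of the medial shell (n = 5 libraries) came from WT mice, no agent or other allele is given for either group, and the sources used here do not give the age of the animals. The RNA was amplified with Geo-seq, a laser-capture method for small pieces of tissue, so each library is bulk RNA of mixed cells, labelled as mouse neural cell, and the labels call the samples biological replicates without tying them to animals.

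Proteins of this family share the START domain, a pocket that encloses a single lipid and shields it from water. Star, Stard3, Stard4 and Stard5 bind sterols. Stard7, Stard10 and Pctp bind phosphatidylcholine, and Col4a3bp, also called CERT or Cert1, carries ceramide from the endoplasmic reticulum to the Golgi. Stard8 and Stard13 join the domain to a part that switches off small GTPases. Most cholesterol of the brain is made locally, because lipoproteins of the blood hardly cross into it, and such carriers move it between membranes outside vesicles.

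Each library listed between 15402 and 17003 genes above 0, and mitochondrially encoded genes took 23.5% to 35.3% of its TPM, a unit corrected for gene length and scaled to the same total in every library. Lateral replicate 5 and medial replicate 2 stood apart from the other 8 libraries in 1 abundant transcript, AY036118, at 1.38 and 1.42 TPM against 82500 TPM or more, so the main values are also given without both. Markers of spiny projection neurons, the main striatal neurons, were present in both regions. The dopamine receptor gene Drd1 was at 118 ± 27.7 (SD, n = 5) TPM in lateral and 112 ± 27.5 (SD, n = 5) TPM in medial libraries. Drd2 stood at 121 ± 55.8 and 109 ± 44.1 TPM and Ppp1r1b at 820 ± 166 and 604 ± 148 TPM (SD, n = 5 each, lateral first). For Ppp1r1b the log2 difference of lateral minus medial was 0.45 (95% interval 0.03 to 0.87, limma adjusted p = 0.288). Of 10 such markers 5 had higher lateral and 5 higher medial values, with a median of 0.16 against -0.21 over all genes. None passed in limma, and 3 had an unadjusted p under 0.05, as did 2399 of all 15596 genes tested. Cortical excitatory neuron genes, of which 4 of 10 listed had values, summed to at most 8.08 TPM in any library.

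Because Stard5 carries the largest regional difference of the family and Stard10 is the most abundant member in the lateral shell, the 250 bases before the RefSeq start of each are shown on GRCm38.p6. For Stard5 the RefSeq start is 83632017, and the GENCODE M21 start used for locations below is 83631959, so the last 58 bases of its window lie inside the gene as GENCODE places it. In the table of promoters 8 of the 10 members had an entry that was used, and Star and Stard4 did not. Capitals mark CCAAT and GGGCGG, on either strand, which do not overlap each other.
Stard5, chr7:83631767-83632016, plus strand: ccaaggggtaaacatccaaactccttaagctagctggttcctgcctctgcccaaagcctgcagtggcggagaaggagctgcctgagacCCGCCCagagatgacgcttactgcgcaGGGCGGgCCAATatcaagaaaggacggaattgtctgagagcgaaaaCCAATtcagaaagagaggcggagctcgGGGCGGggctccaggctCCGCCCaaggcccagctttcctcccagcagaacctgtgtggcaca
Stard10, chr7:101316836-101317085, plus strand: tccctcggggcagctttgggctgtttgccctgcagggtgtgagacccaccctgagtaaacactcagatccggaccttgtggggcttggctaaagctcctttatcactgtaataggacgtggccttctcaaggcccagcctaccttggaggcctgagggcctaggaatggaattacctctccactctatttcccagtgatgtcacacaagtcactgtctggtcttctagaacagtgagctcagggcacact
The Stard5 window held 2 matches to CCAAT and 4 to GGGCGG, the Stard10 window none of either. Over 32851 promoter windows of this length, 33.8% held CCAAT, 32.7% held GGGCGG and 11% held both. Among the other 6 members in the table, CCAAT occurred in Stard7, Stard13, Pctp, Stard3 and Stard8, and GGGCGG in Stard7, Pctp, Stard3, Col4a3bp and Stard8. The bases in Stard5 were 59.2% G or C and in Stard10 54.4%, against a median of 52.4% over all windows. The consensus letters of the sterol regulatory element and of the endoplasmic reticulum stress element occurred in none of the 8 members' windows on either strand. They occurred in 0.0731% and 0.113% of all windows. Star and Stard4 were not examined for them. TATAAA occurred in none of the 8 either, and in 12.4% of all windows. TGACG, the core of the cAMP response element, occurred once in the Stard5 window and once in that of Col4a3bp, and in 17.8% of all windows. These matches describe the letters only.

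Stard5 encodes a soluble sterol carrier that also binds bile acids. The gene lies on chromosome 7, from 83631959 to 83653127 on the plus strand (GRCm38, GENCODE M21), with 6 exons and a coding length of 639 bases in its longest CCDS transcript. Its level was 0.416, 3.51, 0.25, 0.838 and 3.37 TPM in lateral replicates 1 to 5 and 52.8, 133, 49.0, 61.3 and 59.5 TPM in medial replicates 1 to 5. Every medial library lay above every lateral library, with the lowest medial value at 49.0 TPM and the highest lateral value at 3.51 TPM. The means were 1.68 ± 1.62 (SD, n = 5) TPM in lateral and 71.1 ± 34.9 (SD, n = 5) TPM in medial libraries, a ratio of 42.4 of medial to lateral. On the log2(TPM + 1) scale the difference of lateral minus medial was -4.87 (standard error 0.41, 95% interval -5.76 to -3.97), which ranked 3 by size among 15596 genes tested. The median difference of all those genes was -0.21. Without the 2 libraries that stood apart the means were 1.25 ± 1.52 and 55.6 ± 5.74 TPM (SD, n = 4 each) and the log2 difference was -4.85.

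Within its library Stard5 ranked low in the lateral and high in the medial shell. It exceeded 19.9% to 44.2% of all 20483 genes in the lateral libraries and 90.6% to 97.1% in the medial ones, counting genes listed at 0. Among the 15596 genes tested, its mean exceeded 7.86% in the lateral and 92.2% in the medial shell. Medial replicate 2 was highest, at 133 TPM, and the other 4 medial libraries lay between 49.0 and 61.3 TPM. In bulk tissue, fewer cells that carry a transcript and less of it per cell cannot be told apart.

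**Figure D1:**
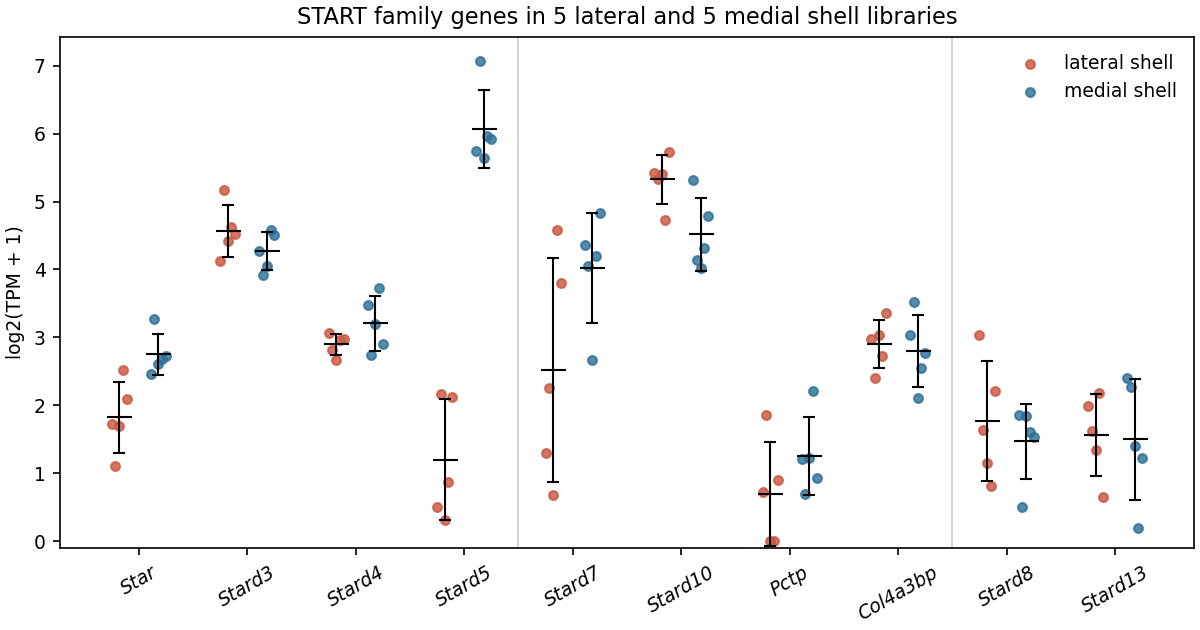
Levels of the 10 START family genes, as log2(TPM + 1), in 5 lateral (red) and 5 medial (blue) shell libraries. Points are libraries, and bars are the mean ± SD of the log2 values. The grey lines divide sterol carriers, phospholipid and ceramide carriers, and GTPase-regulating members. Stard5 is the member whose regions do not overlap, at up to 3.51 TPM laterally and at least 49.0 TPM medially.

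Markers of some cell types differed between the regions beside Stard5. Median log2 differences were 0.91 for microglia, 0.99 for oligodendrocyte and -0.82 for neuroblast markers, against -0.21 over all genes. Over all genes tested, 68.7% had lower lateral values, 0.385% were called higher in lateral and 1.10% higher in medial. Of those 15596 genes, 2399 had an unadjusted p under 0.05. All 10 microglia markers had higher lateral values and 3 passed the test, C1qa, Tmem119 and Ctss, with a summed level of 426 to 666 TPM laterally and 202 to 432 TPM medially. Of 10 oligodendrocyte markers 9 had higher lateral values and none passed (limma adjusted p of 0.05 or more, with 4 at an unadjusted p under 0.05), with sums of 310 to 1037 TPM against 113 to 514 TPM. All 8 tested neuroblast markers had higher medial values and Sox11 passed, with sums of 102 to 133 TPM laterally and 115 to 224 TPM medially. Of 10 astrocyte markers 7 had higher medial values and none passed in limma, with 5 at an unadjusted p under 0.05 (952 to 1272 TPM in lateral, 1060 to 1422 TPM in medial). The astrocyte median of -0.22 was close to that of all genes. In each of these lists the summed levels of the regions overlapped. The sums of endothelial and mural markers also overlapped, at 227 to 794 and 222 to 403 TPM. So did those of 6 ependymal and choroid plexus genes with values, at 6.77 to 27.4 and 6.71 to 23.5 TPM. No listed marker with values was at 0 in all libraries. The part of these cell types in the Stard5 difference was not tested.

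The other sterol carriers differed less. Star, which delivers cholesterol to the inner mitochondrial membrane at the first step of steroid synthesis, stood at 2.32, 1.15, 2.23, 4.72 and 3.28 TPM in lateral replicates 1 to 5 and at 4.54, 8.63, 5.10, 5.45 and 5.65 TPM in medial replicates 1 to 5. A single pair of libraries made the regions overlap, lateral replicate 4 at 4.72 TPM above medial replicate 1 at 4.54 TPM. The log2 difference was -0.93 (standard error 0.35, 95% interval -1.67 to -0.18), with means of 2.74 ± 1.34 TPM laterally and 5.87 ± 1.6 TPM medially (SD, n = 5 each). With a pseudocount of 5 it was -0.50. Medial replicate 2 was the highest library for Star as it was for Stard5, and without that library the Star difference was -0.80.

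Stard4, a soluble sterol carrier close in sequence to Stard5, was measured at 5.34 to 7.38 TPM laterally and 5.67 to 12.3 TPM medially. Its log2 difference of -0.31 (95% interval -0.90 to 0.28) lay near the median of all genes, and it was -0.13 with median-ratio scaling and -0.08 after quantile normalization. Without medial replicate 4, the highest library, it was -0.18. Stard3, a membrane protein of late endosomes that contacts the endoplasmic reticulum, was at 16.5 to 35.1 TPM laterally and 14.2 to 22.9 TPM medially. Its log2 difference was 0.31 (95% interval -0.19 to 0.81), and 0.16 without lateral replicate 2, the library at 35.1 TPM. It was 0.51 with median-ratio scaling and with quantile normalization. The intervals of Stard3 and Stard4 both included 0.

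Among the phospholipid and ceramide carriers, Stard10, which transfers phosphatidylcholine and phosphatidylethanolamine, had the higher values in the lateral shell. It was at 42.0, 39.4, 41.2, 25.6 and 51.9 TPM in lateral replicates 1 to 5 and at 39.0, 16.6, 15.2, 19.0 and 26.7 TPM in medial replicates 1 to 5. Lateral replicate 4 lay below medial replicates 1 and 5, so the regions overlapped, and the other 4 lateral libraries lay above every medial one. The log2 difference was 0.81 (standard error 0.27, 95% interval 0.22 to 1.39), from means of 40.0 ± 9.42 TPM laterally and 23.3 ± 9.82 TPM medially (SD, n = 5 each). Without the 2 libraries that stood apart it was 0.61. Stard10 overlaps Gm45344 on its own strand and Gm20476 on the other, and the sources used here do not say whether counting used strand.

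Stard7, which brings phosphatidylcholine to mitochondria, was the most variable member. Its values were 1.46, 3.79, 0.60, 22.9 and 13.0 TPM in lateral replicates 1 to 5 and 19.6, 15.5, 5.36, 17.4 and 27.4 TPM in medial replicates 1 to 5. The lateral libraries split into 3 below 4 TPM and 2 above 12 TPM, and those 2 lay within the medial range. Its SD within regions was 1.3 on the log2 scale, larger than that of 94.1% of genes tested, against a median over genes of 0.55. The log2 difference was -1.50 (95% interval -2.94 to -0.06), and it ranged from -1.03 without lateral replicate 3 to -2.01 without lateral replicate 4. With a pseudocount of 5 it was -0.91. Col4a3bp was at 4.32 to 9.25 TPM laterally and 3.33 to 10.5 TPM medially, with a log2 difference of 0.10 (95% interval -0.59 to 0.80) whose sign turned without lateral replicate 5 or without medial replicate 3. Pctp, a cytosolic phosphatidylcholine carrier, was the member that did not pass the filter of 1 TPM in at least 5 samples, at 0.658, 2.64, 0, 0 and 0.864 TPM in the lateral and 1.31, 0.626, 1.35, 3.64 and 0.907 TPM in the medial replicates 1 to 5.

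The GTPase-regulating members were low in both regions. Stard8 was at 0.765 to 7.21 TPM laterally and 0.427 to 2.63 TPM medially, and its log2 difference of 0.30 (95% interval -0.74 to 1.34) turned to -0.05 without the 2 libraries that stood apart. It also turned without lateral replicate 1, the library at 7.21 TPM. Stard13 was at 0.577 to 3.56 TPM and 0.147 to 4.29 TPM, with a log2 difference of 0.06 (95% interval -1.01 to 1.13) whose sign turned without any of lateral replicates 1 and 4 and medial replicates 4 and 5. Without the 2 libraries that stood apart it was 0.48.

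**Figure D2:**
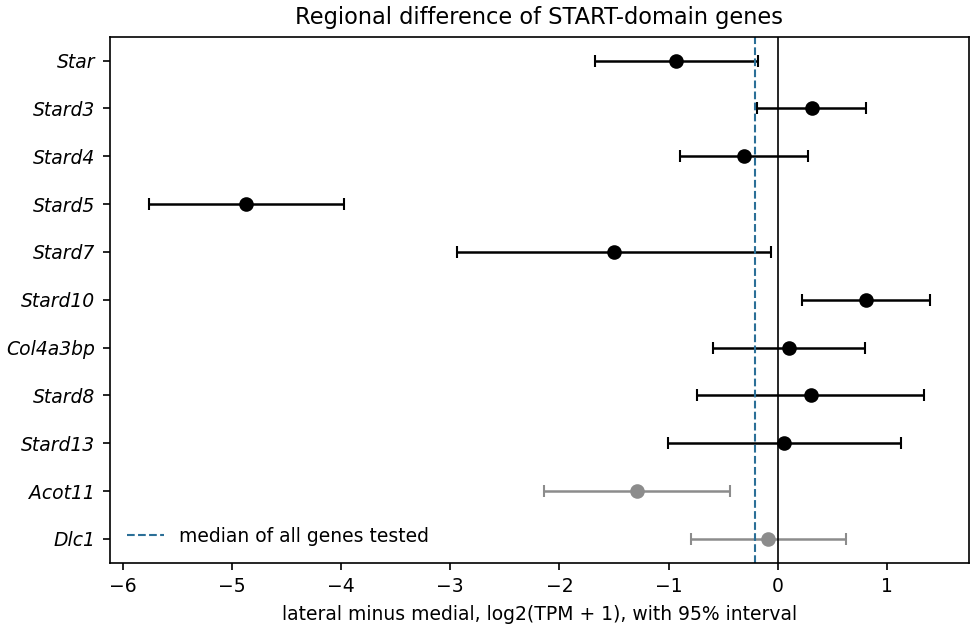
Regional difference (lateral minus medial) in log2(TPM + 1) for the 9 members that passed the filter (black) and for Acot11 and Dlc1 (grey), with 95% intervals from the fit across all genes. The dashed line marks the median of all genes tested, -0.21. The interval of Stard5 runs from -5.76 to -3.97, and the intervals of 5 members include 0.

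Of the 9 members in the fit 4 had lower and 5 higher lateral values, with a median log2 difference of 0.06. Stard5 was the 1 member past the threshold of the test, where 1.48% of all genes were, and the 1 member whose regions did not overlap, where 4.25% of all genes did not (3.39% with higher medial and 0.859% with higher lateral values). The choice of Stard5 used these values, so the counts say nothing further of the family.

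The make-up of the family's transcripts differed between the regions with Stard5. Stard5 took 0.312% to 3.50% of the summed TPM of the 10 genes in lateral libraries and 33.1% to 63.6% in medial libraries. Stard10 was the leading member in all 5 lateral libraries, at 27.1% to 51.5% of the sum, with Stard3 second in each. Stard5 led in all 5 medial libraries. The sum was 95.4 ± 13.1 TPM laterally and 156 ± 36.2 TPM medially (SD, n = 5 each). Without Stard5 it was 93.7 ± 11.7 TPM and 85.4 ± 19.0 TPM, and the ranges overlapped, at 79.8 to 111 TPM and 58.3 to 107 TPM.

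By mean level the lateral order was Stard10, Stard3, Stard7, Col4a3bp, Stard4, Stard8, Star, Stard13, Stard5 and Pctp, and the ranges of every pair of neighbours in that order overlapped. In the medial shell the order was Stard5, Stard10, Stard3, Stard7, Stard4, Col4a3bp, Star, Stard13, Stard8 and Pctp. There Stard5 lay above Stard10 without overlap, and Star above Stard13 without overlap, while the other neighbours overlapped. The members lie on 8 chromosomes. Stard5 and Stard10 share chromosome 7, and Stard3 and Pctp share chromosome 11. Coding lengths ran from 639 bases in Stard5 and 642 bases in Pctp, which hold little beyond the START domain, to 3396 bases in Stard13.

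**Figure D3:**
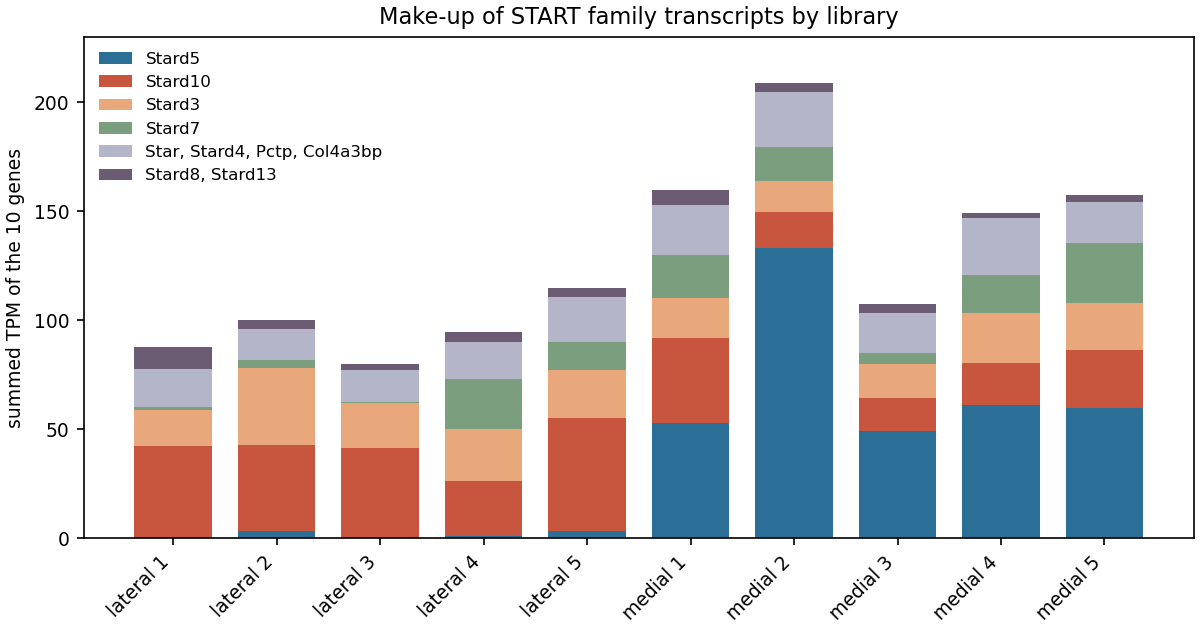
Summed TPM of the 10 START family genes in each library, stacked by gene or gene group, with the bars starting at 0. Stard5 makes up at most 3.50% of a lateral bar and at least 33.1% of a medial bar, and Stard10 is the largest part of every lateral bar.

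Other genes with a START domain were listed apart from the members, and 3 of the 5 had values. Acot11, an acyl-CoA thioesterase with a START domain, was at 0.63, 3.11, 0.945, 2.90 and 3.06 TPM in the lateral and 4.64, 9.31, 8.92, 4.30 and 4.96 TPM in the medial replicates 1 to 5. Its regions did not overlap, but its log2 difference of -1.29 (standard error 0.40) missed the threshold (limma adjusted p = 0.142), and it was -0.67 with a pseudocount of 5. Dlc1, another GTPase-regulating gene of the kind of Stard8 and Stard13, had means of 2.68 ± 0.574 and 2.95 ± 0.824 TPM (SD, n = 5 each), with a log2 difference of -0.09 (95% interval -0.80 to 0.62, limma adjusted p = 0.922) that changed sign with median-ratio scaling, quantile normalization or without lateral replicate 1. Stard9, a kinesin with a START domain, was listed at 0 in all 5 medial libraries and at 0.87, 4.25, 6, 3.19 and 0 TPM in lateral replicates 1 to 5, and it did not pass the filter. Stard6 and Acot12 were not analysed here.

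Beside Stard5 on chromosome 7, the 2 nearest genes also had lower lateral values, of which 1 passed, and those tested farther away had intervals that included 0. Within 500 kb, 7 other genes had values and 6 were tested. Gm16638, annotated as an antisense noncoding RNA, starts 79 bases before the GENCODE start of Stard5 and runs the other way, from 83631880 down to 83597048, so its start falls inside the promoter window printed above. It was at 1.07, 1.99, 2.11, 0.795 and 1.02 TPM in the lateral and 4.01, 11.4, 6.80, 9.90 and 4.08 TPM in the medial replicates 1 to 5. The regions did not overlap, and its log2 difference of -1.72 (standard error 0.38) passed over all genes (limma adjusted p = 0.0396). The call was lost in 16 of the 20 alternatives run for it. It was lost on leaving out any single library except medial replicate 1, and the adjusted p was 0.0501 to 0.192 over the 16.

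Gm45838 lies within Stard5 on the same strand, and 101 of its 2447 exon bases are shared with exons of Stard5. It was at 0 to 2.20 TPM in the lateral and 0.893, 20.6, 1.55, 13.9 and 12.5 TPM in the medial replicates 1 to 5. Its log2 difference of -2.25 (standard error 0.69) did not pass (limma adjusted p = 0.143). The regions overlapped through medial replicates 1 and 3, which were at 52.8 and 49.0 TPM of Stard5. Il16, on the other strand, shares 1202 exon bases with Stard5 and was not analysed here, so without strand in the counting reads from the shared bases could belong to either gene. Of the farther genes, Gm7964 had a log2 difference of -0.32, Tlnrd1 of 0.37, Mesd of 0.31 and Abhd17c of 0.09, with limma adjusted p of 0.521 to 0.92. Cfap161 was listed at 0 in all libraries but medial replicate 5.

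**Figure D4:**
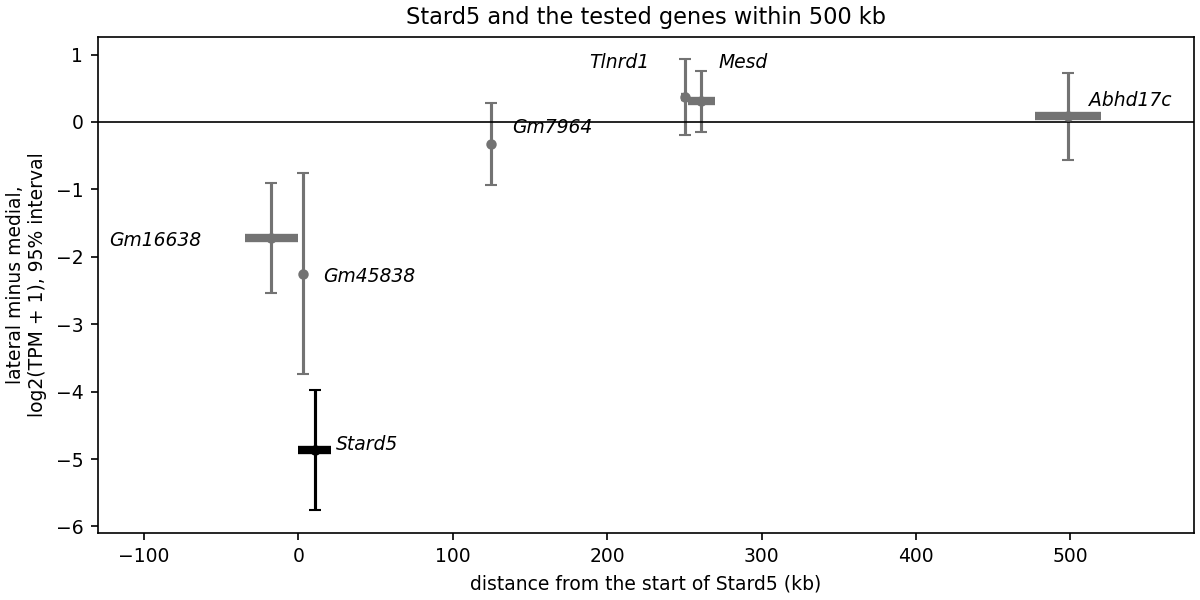
Regional difference (lateral minus medial) in log2(TPM + 1) for Stard5 (black) and the 6 tested genes within 500 kb (grey), against the distance from the start of Stard5. Thick bars show the extent of a gene and thin bars the 95% interval. Gm16638 and Gm45838, next to or within Stard5, stand at -1.72 and -2.25, and the intervals of the other 4 include 0.

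Pathways that supply or use the lipids of these carriers were read from 8 lists of 158 genes, of which 129 were tested. In all 4 passed over all genes, or 3.10% where 1.48% of genes did. Higher in medial were 3 (1.10% of all genes) and higher in lateral 1 (0.385% of all genes). With median-ratio scaling the balance turned, to 1 higher in medial and 3 in lateral, as it did over all genes (82 against 88). Without the 2 libraries that stood apart 0 of the pathway genes passed in either direction.

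In ceramide and sphingomyelin metabolism, the list in which Col4a3bp acts, 3 of 24 tested genes passed, and the median log2 difference was -0.15. Samd8, an enzyme that makes the sphingomyelin analogue ceramide phosphoethanolamine, was at 1.13, 0.983, 1.21, 0.709 and 0.954 TPM in the lateral and 2.70, 15.9, 21.3, 17.7 and 21.2 TPM in the medial replicates 1 to 5. The regions did not overlap, and medial replicate 1 was far below the other 4. Sptssa, a small subunit of the enzyme that starts sphingolipid synthesis, was at 46.2 to 75.8 TPM laterally and 93.5 to 130 TPM medially, a log2 difference of -0.86 (standard error 0.17, limma adjusted p = 0.0252). Gltp, a glycolipid transfer protein outside the START family, went the other way, at 22.9 to 39.7 TPM laterally and 10.4 to 12.5 TPM medially, a log2 difference of 1.2 (standard error 0.20, limma adjusted p = 0.013). For Samd8 the log2 difference was -2.84 (standard error 0.47, limma adjusted p = 0.013), and -1.67 with a pseudocount of 5. Without the 2 libraries that stood apart none of the 3 passed, with Samd8 at an adjusted p of 0.0903. The Sptssa call also ended without either of lateral replicates 2 and 4, without any of medial replicates 2 to 5 and with median-ratio scaling (adjusted p of 0.0559 to 0.118 over all 10 alternatives that ended it).

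In cholesterol synthesis and uptake 1 of 26 tested genes passed, Acat2, an enzyme of the first step from acetyl-CoA. It was at 14.1 to 23.4 TPM laterally and 32.1 to 53.5 TPM medially, a log2 difference of -1.13 (standard error 0.22, limma adjusted p = 0.0247). Sqle, the squalene epoxidase, was at 3.87 to 13.8 TPM and 14.5 to 31.5 TPM and did not pass (limma adjusted p = 0.0921). Of the 26 genes 16 had higher medial values, and the list median of -0.20 was close to the -0.21 of all genes. The call of Acat2 was lost in 9 alternatives, among them median-ratio scaling and leaving out lateral replicates 2 or 4 or any of medial replicates 2, 4 and 5, with 0.0903 as the highest adjusted p.

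In the other 6 lists no gene passed in limma. At an unadjusted p under 0.05 there were 3 of 26 tested sterol carriers, 3 of 9 oxysterol genes and 2 of 15 phospholipid transfer genes. There was 1 each among 20 stress, 7 neurosteroid and 2 other START-domain genes. Over all genes tested the count was 2399 of 15596. The sterol carriers and membrane-contact proteins had 21 of 26 tested genes with higher medial values, where 68.7% of all genes did, and a median of -0.21. Of the 26, 13 lay below the median of all genes. At the smallest p were Osbpl1a (28.7 against 19.0 TPM, lateral first, limma adjusted p = 0.251), Osbpl6 (8.13 against 11.9 TPM, 0.288) and Osbpl9 (14.5 against 21 TPM, 0.321). These encode oxysterol-binding-protein relatives. Among oxysterol, bile acid and liver X receptor genes the median of 9 was 0.12. Cyp46a1, the neuronal enzyme that turns cholesterol into 24-hydroxycholesterol, was at 118 ± 27.6 TPM laterally and 70.0 ± 17.4 TPM medially (SD, n = 5 each, limma adjusted p = 0.109), and it passed with median-ratio scaling and after rescaling without mitochondrial genes. Amacr, a racemase of bile acid synthesis, was at 5.38 against 13.6 TPM (limma adjusted p = 0.181), and Hsd3b7, a bile acid synthesis enzyme, at 1.45 against 7.68 TPM (limma adjusted p = 0.236).

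Neurosteroid synthesis genes, downstream of Star, had a median of -0.12, and all 7 tested had higher medial values, as did 68.7% of all genes. Of the 7, 3 lay below the median of all genes, -0.21. Hsd17b10 turned positive with median-ratio scaling. Sult2b1, a sterol sulfotransferase, was at 17.6, 0.873, 0, 6.48 and 0 TPM in the lateral and 9.51, 14.2, 12.9, 10.8 and 18.8 TPM in the medial replicates 1 to 5 (limma adjusted p = 0.157, and it passed without lateral replicate 1 at 0.0326). Hsd11b1 had a limma adjusted p of 0.73 and Hsd17b10 of 0.783. Of the phosphatidylcholine and phosphatidylinositol transfer genes, with a median of -0.20 over 15, Pitpnc1, a phosphatidylinositol carrier, was at 38.2 to 53.3 TPM laterally and 13.4 to 33.1 TPM medially. Those ranges did not overlap, and Pitpnc1 did not pass (limma adjusted p = 0.0711) except in 4 alternatives, both scalings between samples, rescaling without mitochondrial genes and leaving out medial replicate 1. Pitpnm3 (limma adjusted p = 0.184) and Sec14l2 (limma adjusted p = 0.402) followed. Endoplasmic reticulum stress genes had a median of -0.10 over 20. Trib3, a pseudokinase induced by that stress, was at 0 to 3.68 TPM laterally and 2.38 to 13.4 TPM medially (limma adjusted p = 0.0798, and 0.0483 without lateral replicate 2). Manf (21.6 against 28.7 TPM) and Asns (69.3 against 86.6 TPM) had limma adjusted p of 0.33 and 0.361.

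**Figure D5:**
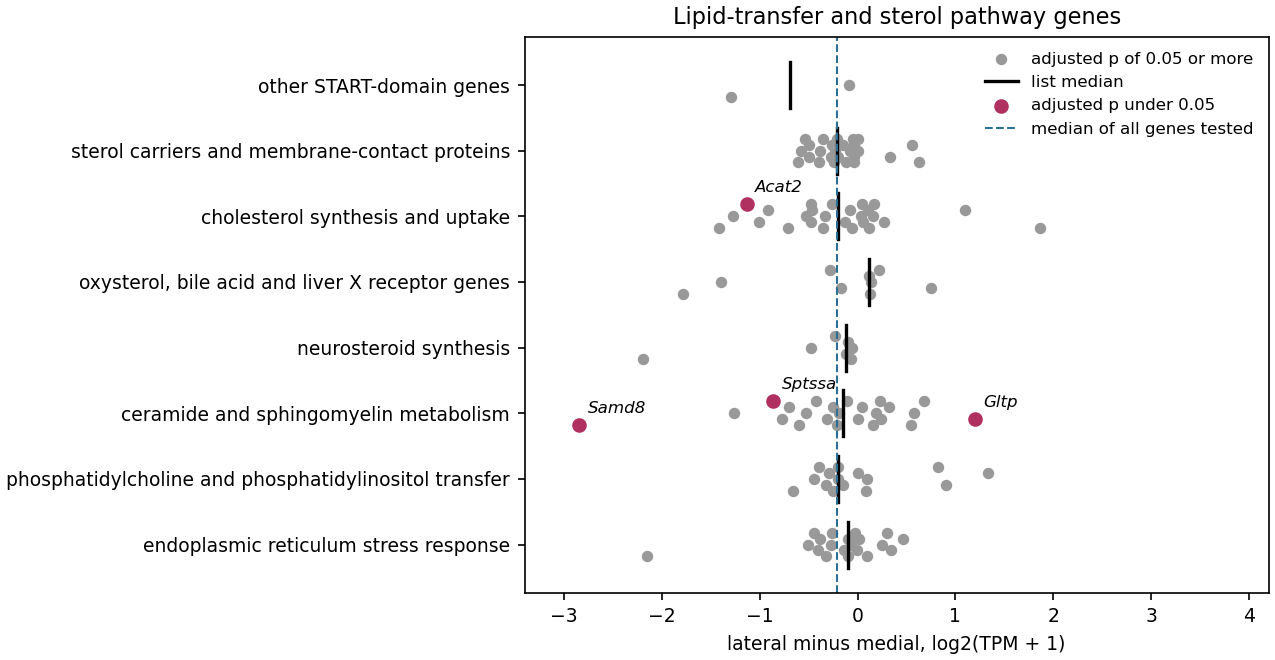
Regional difference (lateral minus medial) in log2(TPM + 1) for every tested gene of the 8 lists, with 1 point per gene, the list median as a black bar and the median of all genes tested as a dashed line at -0.21. Samd8, Sptssa and Acat2, on the medial side, and Gltp, on the lateral side, are the 4 genes with an adjusted p under 0.05.

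The genes whose levels followed Stard5 most closely over the 10 libraries were chosen among those averaging 5 TPM or more. As the regions form separate clusters for Stard5, a high or low Pearson r over all libraries mostly restates the regional gap, and the r of deviations from the region means is given beside it as a description. Highest were Lrrn3, a neuronal leucine-rich repeat protein gene (r = 0.98 over 10 libraries, 0.72 within regions), Pnmal2 (0.97, 0.78), the chemokine gene Cxcl13 (0.97, 0.38), the splicing-kinase gene Clk1 (0.96, 0.79) and Caln1 (0.96, 0.80). All 5 lateral libraries listed Cxcl13 at 0, so it had no lateral deviations, and its r over the medial libraries alone was 0.71. Lrrn3 was at 19.6, 21.8, 19.8, 18.5 and 28.7 TPM in the lateral and 60.4, 139, 80.7, 78.7 and 94.1 TPM in the medial replicates 1 to 5. Its highest medial library, replicate 2, was also that of Stard5. Lowest were the orphan receptor gene Gpr101 (r = -0.96, -0.32 within regions), the ferritin heavy chain gene Fth1 (-0.95, -0.28), Ly86, a gene of microglia and other myeloid cells (-0.95, -0.74), the adhesion gene Cadm2 (-0.95, -0.33) and Usp25 (-0.94, -0.56). Ly86 was at 73.1, 39.8, 49.8, 47.2 and 29.2 TPM in the lateral and 7.64, 4.04, 20.1, 9.33 and 9.47 TPM in the medial replicates 1 to 5. Deviations in these libraries share scaling and amplification, and they also enter the r by which the genes were picked. The within-region values therefore carry no test.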

How the data were processed

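The authors deposited TPM by gene symbol for 20483 genes with 1 column per sample, and the 10 samples were grouped by their titles. The submitters' processing notes list, on the build GRCm38 and without roles, StringTie 1.3.4, HISAT2 2.1.0, featureCounts 1.6.3 and fastp 0.20.0. The sources used here do not give the annotation, strand use or filters. TPM keeps no depth, so the depth is unknown and no counting interval is given. Coordinates came from GENCODE M21 on GRCm38.

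Levels were fitted as log2(TPM + 1) with limma 3.58.1 in R 4.3.3 (mean-variance trend) over 15596 genes with at least 1 TPM in at least 5 samples, and a gene was called at a Benjamini-Hochberg adjusted p under 0.05. A log2 difference on this scale understates the change of low genes. The p-values set the difference between regions against the spread between samples of a region, which may be partly technical. Scripts were tested on simulated data. Figures were drawn with matplotlib.

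The members and lists were chosen with earlier results of these data known. Named were all members, the other START-domain genes, every called gene of a list (or the 3 smallest p where fewer than 3 were called), the 5 highest and 5 lowest r with Stard5 and the genes within 500 kb. A result that this rule named in the cholesterol list is not reported here. Alternatives changed the pseudocount, filter, scaling, variance model, replicate block and each sample.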

Additional observations from a re-analysis of the deposited data

Results flagged for a closer look

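Within a region, 6 of 102 groups of 5 libraries had a highest library far from the other 4. Chance flags about 1 in 20 groups of normally spread values, and the rate for TPM values was not tested. Medial replicate 2 was at 133 TPM of Stard5, with the others at 49.0 to 61.3 TPM, and at 8.63 TPM of Star, with the others at 4.54 to 5.65 TPM. Medial replicate 2 is also 1 of the 2 libraries near 0 for AY036118. Medial replicate 4 was at 3.64 TPM of Pctp, with the others at 0.626 to 1.35 TPM. Lateral replicate 2 was at 3.68 TPM of Trib3, with the others at 0 to 0.93 TPM. Medial replicate 5 was at 1.40 TPM of Cfap161 and medial replicate 3 at 0.362 TPM of Gpr101, with the other medial libraries listed at 0 for each. Beside libraries at 0, any value above 0 makes up the whole range, so such a flag says little.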

How the results depend on the processing

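Over 21 alternatives the Stard5 log2 difference kept its sign, from -5.83 with a pseudocount of 0.1 to -3.45 with a pseudocount of 5, and from -5.11 to -4.62 without single libraries. All genes called higher in lateral numbered 60, and 88 with median-ratio scaling, 86 with quantile normalization, 34 without a mean-variance trend, 19 with the replicate block, 12 without lateral replicate 5 and medial replicate 2 together, and 23 to 69 without single libraries. Those called higher in medial numbered 171, and 107 with a pseudocount of 0.1, 82 with median-ratio scaling, 100 with quantile normalization, 111 without the trend, 45 with the block, 31 without both libraries and 56 to 188 without single libraries. Pathway genes called higher in lateral numbered 1, and 3 with median-ratio scaling, 2 with quantile normalization, 3 after rescaling without mitochondrial genes, 0 with the block, 0 without both libraries and 1 to 2 without single libraries. Those called higher in medial numbered 3, and 1 with median-ratio scaling, 1 without the trend, 1 with the block, 0 without both libraries and 1 to 4 without single libraries. Fits without libraries use fewer samples, and the cause of the other changes was not tested. Median-ratio scaling moved the median of all genes from -0.207 to -0.0247 and quantile normalization to -0.00101. Same-numbered libraries did not deviate together (r of -0.0534 to 0.0417 over 5 pairs, and none correlated best with its own number). These deviations also hold technical spread, so they cannot tell whether a number marks a shared animal. In the block fit Gm16638, Acat2, Sptssa and Gltp lost their calls (adjusted p of 0.0931, 0.0843, 0.0791 and 0.0598) and Samd8 kept its call.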
